A study of Mus musculus with 5 samples.

Results

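Cycling cells of every lineage were drawn from droplet libraries of tibialis anterior, a hind-limb muscle, of aged female C57BL/6 mice. UMIs (unique molecular identifiers) count captured RNA molecules, and barcodes with fewer than 200 detected genes or over 10% mitochondrial UMIs were left out. A barcode was called cycling when at least 4 of 8 proliferation genes, Mki67, Top2a, Ube2c, Birc5, Cdk1, Ccnb1, Cenpf and Nusap1, each had at least 1 UMI. This rule found 137 cycling barcodes among 50460 retained ones, 0.272% (95% Wilson interval 0.230% to 0.321%). Each was assigned to the lineage whose gene had the most UMIs: Cdh5 (endothelium), Pdgfra (fibro-adipogenic progenitors), Ptprc (leukocytes), Pax7 (muscle satellite cells), Rgs5 (mural cells of vessels) or Sox10 (Schwann cells). The mice were 26 months old, and the labels used here name no treatment and no transgene. The 2 frail mice had a frailty index of at least 0.18 and the 3 control mice an index below it. By its title the series concerns sarcopenia risk and the cytokine GDF15 with its receptor GFRAL. Each library comes from 1 mouse, so the library is the replicate.

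A dividing cell copies its DNA in S phase and separates the copies in mitosis, after a second gap phase. Genes for replication are switched on by E2F factors as a cell enters S phase. Genes for the spindle, the kinetochores and mitotic entry are switched on later. Many of these late genes carry a cell cycle genes homology region (CHR) and CCAAT boxes, through which MuvB complexes hold them silent in resting cells and, with B-MYB and FOXM1, activate them in dividing ones. In resting adult muscle the fibres are post-mitotic, satellite cells are quiescent, and most vascular and connective tissue cells divide rarely.

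Most of the 8 rule genes hold such letters before their start, and 4 of these promoters are shown for that reason. The windows are from RefSeq on GRCm38.p6 and hold the 250 bases before the start of the gene, 5′ to 3′ on the strand of the gene. They lie at chr7:135716380-135716629 (Mki67, minus strand), chr11:99024190-99024439 (Top2a, minus strand), chr2:164769679-164769928 (Ube2c, plus strand) and chr10:69352913-69353162 (Cdk1, minus strand). Capitals mark CHR letters (TTTGAA, or the variant TTCGAA) and CCAAT on either strand; adjoining or overlapping matches run together.
Mki67: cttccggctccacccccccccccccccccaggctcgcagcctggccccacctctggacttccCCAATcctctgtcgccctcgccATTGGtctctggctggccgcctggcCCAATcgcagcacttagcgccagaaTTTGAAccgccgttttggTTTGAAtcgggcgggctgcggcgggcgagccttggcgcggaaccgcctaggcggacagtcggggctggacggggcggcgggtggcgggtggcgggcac
Top2a: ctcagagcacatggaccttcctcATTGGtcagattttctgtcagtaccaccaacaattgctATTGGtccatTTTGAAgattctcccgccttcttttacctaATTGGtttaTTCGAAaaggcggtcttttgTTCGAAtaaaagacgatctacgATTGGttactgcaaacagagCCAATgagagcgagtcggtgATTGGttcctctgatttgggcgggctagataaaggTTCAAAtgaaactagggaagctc
Ube2c: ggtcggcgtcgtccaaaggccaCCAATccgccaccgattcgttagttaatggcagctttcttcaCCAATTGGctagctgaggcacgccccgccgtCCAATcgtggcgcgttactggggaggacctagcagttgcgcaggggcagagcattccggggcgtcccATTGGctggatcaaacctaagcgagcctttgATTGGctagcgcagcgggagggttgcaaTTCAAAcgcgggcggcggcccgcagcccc
Cdk1: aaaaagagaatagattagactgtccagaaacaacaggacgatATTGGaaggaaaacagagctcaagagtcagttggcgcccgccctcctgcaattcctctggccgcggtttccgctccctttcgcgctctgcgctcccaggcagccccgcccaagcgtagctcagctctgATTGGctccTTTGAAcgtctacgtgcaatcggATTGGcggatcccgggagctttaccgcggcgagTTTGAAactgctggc
With the 50 bases after the start included, all 8 genes had a window, and 5 of the 8 held a CHR while 6 held at least 1 CCAAT. The windows of Birc5, Ccnb1 and Nusap1 held no CHR. Among the 47 further genes of a G2/M list, 40 had a window, with 45 windows in all. A CHR stood in 33 of these 45 windows (73.3%), against 6316 of all 32851 mouse windows of the same 300 bases (19.2%). At least a pair of CCAAT boxes stood in 25 of the 45 (55.6%), against 11.7% of all windows. The E2F letters GCGGGAA stood in 1 of the 45 (2.22%), against 4.60% of all windows. A match describes letters and not a working site. Only 31 of the 43 genes of an S-phase list had a window, under 80%, so their share is void and is not given.

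The deposited libraries held 68170531 to 90942121 UMIs in 9791 to 13303 barcodes, of which 8650 to 12088 were retained. Cycling barcodes were deeper than the rest: their median was 15467 to 30324 UMIs per library, against 5338.5 to 7000 in the others. Mitochondrial UMIs took a median of 1.57% to 2.51% in cycling and 3.08% to 4.14% in other barcodes. No barcode sequence was cycling in more than 1 library, and 2 of the 137 sequences occurred among the retained barcodes of another library. Removing the highest Scrublet doublet scores took 5 of the 137 (3.65%), against 4.09% of all retained barcodes. Lineage genes mixed in many: 31 of the 113 cycling barcodes with at least 10000 UMIs (27.4%) held at least 3 UMIs of each of 2 or more lineage genes, against 22.3% of 10831 other barcodes that deep. Barcodes rich in keratin RNA occurred in control 3 alone. There, 811 retained barcodes, 15 of them cycling, held at least 20 UMIs of Krt5, Krt14, Krt15 and Epcam, genes of surface epithelium; the other 4 libraries had 0 such retained barcodes, and the comparisons between mice were repeated without these 15.

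The rule genes themselves describe the selection and were not tested. Of the 137 barcodes, 63 (46.0%) had all 8 genes, 26 had 7, 23 had 6, 14 had 5 and 11 had exactly 4; another 22 barcodes stood just outside with 3. The barcodes at the threshold had a median of 13895 UMIs and those just below it 12674.5. Mki67, a coat protein of mitotic chromosomes, was detected in 133 of the 137 cycling barcodes and in 0.638% of the others. Its level in the summed cycling barcodes was 763 and 580 CPM (UMIs of a gene scaled to a common library total) in frail 1 and 2, and 609, 598 and 1081 CPM in control 1 to 3. Other barcodes, weighted to the same lineages, held 3.14, 1.64, 4.07, 4.53 and 4.44 CPM in the same order. Control 3 was highest, and the frail and control libraries overlapped. Top2a, the enzyme that untangles replicated DNA, stood at 735, 558, 723, 685 and 1035 CPM, against 2.86 to 4.36 CPM in matched barcodes. Cdk1, the kinase of mitotic entry, stood at 233, 308, 181, 147 and 276 CPM, against 0.445 to 1.25 CPM. Ccnb1, its cyclin B partner, was found in only 76 cycling barcodes. Cenpf, a kinetochore and nuclear matrix protein, measured 694 and 608 CPM in frail mice and 212, 295 and 885 CPM in control libraries, with the frail values inside the range of the controls. No cycling barcode was found among 1926 barcodes with over 1% of UMIs from 5 myofibre markers, which allows a share of up to 0.156%, and 32 of them held any rule gene. Their median depth of 1183 to 3295 UMIs per library was lower than that of cycling barcodes.

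**Figure D1:**
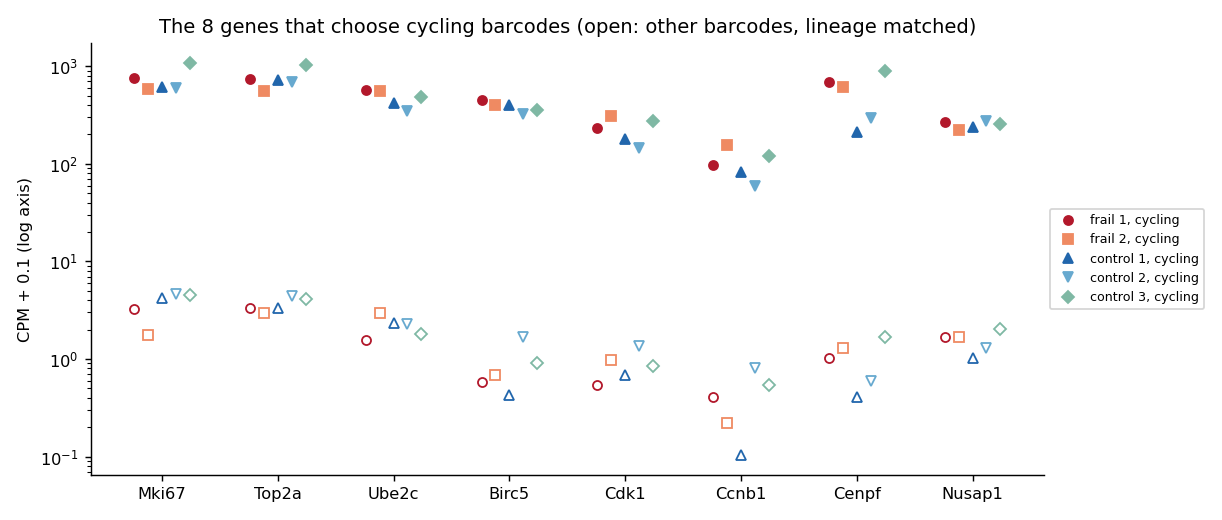
Levels of the 8 rule genes, in CPM plus 0.1 on a log axis, in the summed cycling barcodes of each library (filled) and in other barcodes weighted to the same lineages (open). For each gene the 5 filled points lie far above the 5 open ones, as the rule requires.

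Cycling barcodes were 0.246% and 0.314% of retained barcodes in frail 1 and 2 (23 and 33 barcodes), and 0.173%, 0.193% and 0.389% in control 1 to 3 (15, 19 and 47). The highest and the lowest share both belonged to controls, so the groups overlapped. The means were 0.280% ± 0.0480 (SD, n = 2) in frail and 0.252% ± 0.119 (SD, n = 3) in control mice (exact two-sided permutation test over libraries, p = 0.9). With 2 libraries against 3, the smallest p this test can give is 0.1. The direction of the small difference turned without frail 2, control 1 or control 2, and it was 0.0632 percentage points, frail higher, without the keratin-rich barcodes (exact permutation p = 0.3). Thinned to 3000 UMIs each, 16, 20, 11, 12 and 31 barcodes met the rule, 0.203%, 0.242%, 0.153%, 0.153% and 0.315% of those deep enough. The order of the libraries was almost the same as without thinning, with control 3 highest and control 1 and 2 lowest.

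Leukocytes were the lineage with the highest cycling share at full depth, but not in every library at equal depth. The Ptprc lineage held 51 of the 137 cycling barcodes (37.2%) but 4.99% of the retained ones, and 2.02% of its barcodes were cycling (95% Wilson interval 1.54% to 2.65%). The share was 0.261% in the Cdh5 lineage (36 barcodes), 0.167% in Rgs5 (15), 0.0657% in Pdgfra (10), 0.714% in Sox10 (6) and 0.504% in Pax7 (4). A further 5 barcodes had tied lineage genes and 10 had none. The Ptprc share lay above that of each of the 5 other lineages in all 5 libraries (exact sign-flip permutation test at the smallest p that 5 libraries allow; Benjamini-Hochberg adjusted p = 0.134 over 15 pairs of lineages). No pair passed the threshold, which the design could not reach. After thinning to 3000 UMIs and reassigning lineages, the Ptprc share was no longer above the Cdh5 share in the frail libraries: it was 0% against 0.475% in frail 1 and 0.318% against 0.321% in frail 2. At that depth 0 and 1 Ptprc-lineage cycling barcodes were left in them. The thinned Ptprc share was also below that of Rgs5 in frail 1 (0.244%), of Sox10 in frail 2 (1.31%), and of Sox10 (1.68%) and Pax7 (0.893%) in control 3, where it was 0.461%. It was the highest of the 6 lineages in control 1 and control 2 only. Pooled over libraries, the Pdgfra lineage, with 15228 retained barcodes, had the lowest share; in single libraries other lineages were lower, such as Pax7 with 0 cycling barcodes in 4 of 5.

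**Figure D2:**
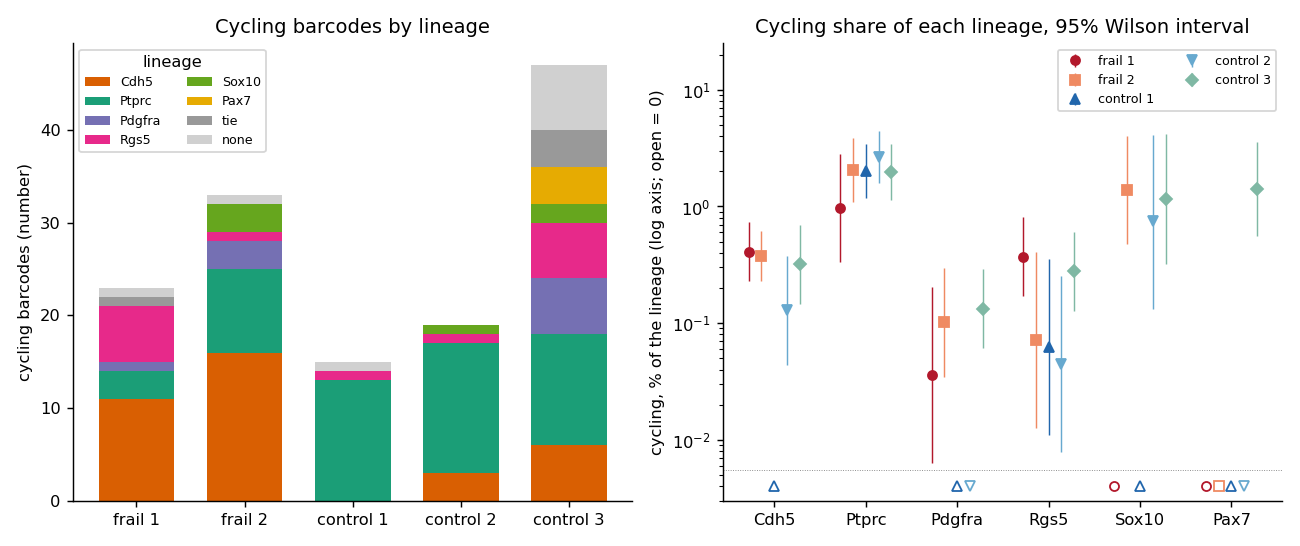
Left, the number of cycling barcodes in each library by lineage; right, the cycling share of each lineage in percent on a log axis with 95% Wilson intervals, open symbols standing for 0. Ptprc shares lie between 0.977% and 2.65%, and the Cdh5 part of the bars is 47.8% and 48.5% in the frail libraries against 0% to 15.8% in the controls.

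Endothelial cells formed a larger part of the cycling barcodes in the frail mice. The Cdh5 lineage made up 47.8% and 48.5% of cycling barcodes in frail 1 and 2 (11 and 16 barcodes), and 0%, 15.8% and 12.8% in control 1 to 3 (0, 3 and 6). The groups did not overlap, with means of 48.2% ± 0.466 (SD, n = 2) and 9.52% ± 8.38 (SD, n = 3), and the exact permutation p was 0.1, the smallest possible. As a share of all Cdh5-lineage barcodes, cycling ones were 0.408% and 0.377% in frail and 0%, 0.129% and 0.320% in control libraries. These groups did not overlap either, but the exact permutation p was 0.2 (adjusted 0.9 over 6 lineages). The 0 of 2628 in control 1 allows a share of up to 0.114%. Thinned to 3000 UMIs, the shares were 0.475% and 0.321% against 0.0551%, 0% and 0.0822% (exact permutation p = 0.1). Among all retained barcodes the Cdh5 lineage made up 28.8% and 40.4% in the frail mice and 30.4%, 23.6% and 15.5% in control libraries; these overlapped. More dividing endothelial cells and better recovery of them cannot be told apart in these counts.

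At least 2 of 4 endothelial markers besides Cdh5 were found in 34 of the 36 barcodes of the Cdh5 lineage, against 15 of 51 in the Ptprc lineage and 1 of 10 in the Pdgfra lineage. Those of the 36 that fell short were all in control 3 and held 1 Cdh5 UMI each. At least 2 of 4 fibro-adipogenic markers were found in 27 of the same 36, with 1538 UMIs against 1529 of the endothelial ones. RNA of both kinds was thus present, but most of the fibro-adipogenic RNA lay in few barcodes. Dcn, of this list, had 558 UMIs in 1 barcode of control 3 and 130 in another. It had 352 in 1 barcode of frail 1 and 110 in 1 of frail 2. Kdr, the main VEGF receptor, was lower in cycling than in other Cdh5-lineage barcodes in the 4 libraries that had any. It measured 165 and 408 CPM in frail mice and 247 and 272 CPM in control 2 and 3, against 590, 972, 674 and 776 CPM. Emcn, a sialomucin of capillaries and veins, was also lower in all 4, at 104, 293, 247 and 146 CPM against 276, 402, 325 and 277 CPM. Pecam1, a junction protein, showed no such shift, with 991, 1584, 687 and 719 CPM against 942, 1319, 999 and 904 CPM. Cd74, the invariant chain of antigen presentation, reached at least 20 UMIs in 5 of 11 barcodes in frail 1, 1 of 16 in frail 2, 2 of 3 in control 2 and 1 of 6 in control 3. In the 5 of frail 1, Kdr had 0 to 3 UMIs and Ptprc 0, while those of control 2 and 3 held up to 13 Ptprc UMIs. These thresholds were chosen after the values were seen. The only keratin-rich barcode of this lineage, in control 3, held 336 keratin-marker UMIs.

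Cycling barcodes of the Ptprc lineage held markers of several kinds of cell, with lower levels of macrophage genes than other barcodes of the lineage. The shares of Ptprc-lineage barcodes that cycled were 0.977% and 2.05% in frail mice and 2.03%, 2.65% and 1.99% in control libraries (3, 9, 13, 14 and 12 barcodes; exact permutation p = 0.3). They made up 13.0% and 27.3% of cycling barcodes in frail and 86.7%, 73.7% and 25.5% in control mice. C1qa, a complement subunit of tissue macrophages, was lower in cycling than in other Ptprc-lineage barcodes in all 5 libraries. It measured 0 and 762 CPM in frail mice and 1997, 260 and 1466 CPM in control, against 2963, 2403, 4039, 3192 and 2265 CPM. Csf1r, the receptor for macrophage growth factor, showed the same order, at 121, 258, 257, 145 and 247 CPM against 489, 814, 872, 814 and 554 CPM. Ccr2, the chemokine receptor of recruited monocytes and related cells, was higher in 4 libraries and lower in frail 2, at 466, 431, 623, 746 and 363 CPM against 233, 475, 371, 355 and 281 CPM. Other monocyte genes did not share this rise. Plac8 was lower in every library but control 3, at 0, 106, 0, 29.9 and 194 CPM against 409, 167, 203, 143 and 116 CPM. Ly6c2 was lower in frail 1, control 1 and control 2 and higher in frail 2 and control 3.

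The 51 cycling barcodes of the Ptprc lineage were not all clear leukocytes. In control 3, 1 was keratin-rich, with 381 keratin-marker UMIs beside 1 of Ptprc. Another there held 117 Col3a1 and 77 Dcn UMIs beside 1 of Ptprc. H2-Ab1, an MHC class II chain of antigen-presenting cells, reached 40 UMIs in 34 of the 51. C1qa reached 5 UMIs in 17 and Cd209a, a lectin of monocyte-derived dendritic cells, in 8. Xcr1, the receptor of cross-presenting dendritic cells, was found in 7. At least 2 T cell markers (Cd3e, Cd3d, Trac, Cd3g) were found in 6, and at least 5 UMIs of Nkg7, a granule protein of cytotoxic lymphocytes, in 6. Outside the Ptprc lineage, 1 Cdh5-lineage and 1 Rgs5-lineage barcode, 1 with tied lineage genes and 1 with none also had at least 2 T cell markers. The Cdh5-lineage one, in frail 2, held 11 Cdh5 UMIs beside 3 of Ptprc. S100a8, a neutrophil protein, reached 5 UMIs in 1 of the 51, and none of the 51 had 2 B or plasma cell markers. The S100a8 barcode, in frail 1, was among those with the highest doublet scores. It held 377 S100a8 UMIs with 4 Cdh5 and 7 Pecam1 UMIs beside 8 of Ptprc. These sets overlap. The UMI limits were set after the values were seen. One barcode of control 3 held 253 Gzma UMIs, a granzyme, and made up all of this gene's UMIs in cycling Ptprc-lineage barcodes. Chil3, a monocyte gene, was at 0 UMIs in the cycling Ptprc-lineage barcodes of every library, against 27.5 to 61.4 CPM in the other ones.

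The 6 cycling barcodes of the Sox10 lineage held little RNA of Mbp, a myelin protein. Mbp had 3 UMIs in the 3 barcodes of frail 2, 1 in the 1 of control 2 and 0 in the 2 of control 3, or 69.5, 49.1 and 0 CPM. Other Sox10-lineage barcodes of these libraries held 2022, 1774 and 882 CPM, higher in each. S100b, a calcium-binding protein of glia, was detected in all 6 barcodes. It stood at 92.7, 196 and 382 CPM against 321, 359 and 340 CPM, lower in frail 2 and control 2 and higher in control 3. Cycling Sox10-lineage barcodes were found in 3 of the 5 libraries, and frail 1 and control 1 had none of 253 and 67 Sox10-lineage barcodes, which allows up to 1.19% and 4.48%.

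Few cycling barcodes carried satellite cell genes. The Pax7 lineage had 4 cycling barcodes, all in control 3, where they were 1.42% of 281 (95% Wilson interval 0.555% to 3.60%). A pair of them were keratin-rich, with 155 and 82 Krt5 UMIs beside 6 and 1 Pax7 UMIs. The other two held 7 and 5 Pax7 UMIs with 9 and 2 UMIs of Myod1, the factor that commits satellite cells to the muscle lineage, and 6 and 2 of its relative Myf5. Frail 1 and 2 had none of 178 and 184 Pax7-lineage barcodes, and control 1 and 2 none of 73 and 77, which allows up to 1.69%, 1.63%, 4.11% and 3.90%. Myog, a factor of differentiating myoblasts that have left the cycle, had 0 UMIs in all 137 cycling barcodes. Outside this lineage, 4 Myod1 and 2 Pax7 UMIs were in a Pdgfra-lineage barcode of control 3, and 8 and 5 in a Ptprc-lineage barcode of frail 2 that also held 77 C1qa UMIs and was among those with the highest doublet scores. In frail 1, a barcode with no lineage gene held 1 Myf5 UMI and 2 of Cdh15, another satellite cell marker. A Ptprc-lineage barcode of control 2 held 4 Cdh15 UMIs.

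Stromal and mural lineages kept part of their usual genes. All 10 cycling Pdgfra-lineage barcodes had at least 2 fibro-adipogenic markers, but so did 42 of 51 Ptprc, 12 of 15 Rgs5 and 6 of 6 Sox10 barcodes, so this count does not set the lineage apart. The markers summed to 14681 CPM in the Pdgfra lineage, against 895 to 5250 CPM in the other 5 lineages. Of the 10, 1 was keratin-rich. The only one of frail 1 held 7 Ptprc, 639 Cd74 and 280 H2-Ab1 UMIs beside 8 of Pdgfra, so its values are not of stromal RNA alone. Dcn, a small proteoglycan of the matrix, stood at 3220 CPM in frail 1 (1 barcode), 6633 CPM in frail 2 (3) and 7916 CPM in control 3 (6). It was lower than the 19776, 23095 and 16786 CPM of other barcodes of the lineage in each of these libraries. Col3a1, a fibrillar collagen, had no common direction, at 403, 11262 and 2481 CPM against 2210, 1856 and 2531 CPM. In the Rgs5 lineage, 10 of 15 cycling barcodes had at least 2 mural markers, 12 had at least 2 fibro-adipogenic and 6 at least 2 endothelial ones; 9 of the 10 Pdgfra-lineage barcodes also had 2 mural markers. Myh11, a smooth muscle myosin, was lower than in other barcodes of the lineage in all 5 libraries, at 108, 36.5, 0, 285 and 253 CPM against 1246, 1103, 1214, 862 and 665 CPM. Frail 2, control 1 and control 2 each had only 1 cycling barcode of this lineage. Acta2, a smooth muscle actin, was lower in every library but control 3, where it stood at 3188 against 2187 CPM. Other genes mixed in here: 2 of the 15 were keratin-rich, and 1 in frail 1 held 75 C1qa UMIs beside 2 of Rgs5. The only one of frail 2 held 24 Cdh5 and 24 Pecam1 UMIs beside 59 of Rgs5. The only one of control 2 held 15 Ptprc and 409 Cd74 UMIs beside 33 of Rgs5. In control 3, 1 held 49 Cdh5 and 38 Pecam1 UMIs beside 50 of Rgs5, and 1 had 655 UMIs in all.

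Outside the 8 rule genes, cycling barcodes were set against other barcodes of the same library weighted to the same lineages. Ratios are log2 of (CPM + 10), so they understate the difference for low genes, and the depth of the barcodes was not matched. Of 34050 genes with a UMI, 276 (0.811%) were more than 2-fold higher in every library. These are descriptions without a test, since the barcodes were picked by proliferation genes. The replication genes were the first group. Of 43 genes of an S-phase list, 30 were more than 2-fold higher in all 5 libraries, with a median log2 ratio of 1.77. Pcna, the sliding clamp of replicating polymerases, measured 266 and 325 CPM in frail mice and 401, 306 and 253 CPM in control, against 95, 109, 106, 134 and 112 CPM. Atad2, a chromatin ATPase, had a median ratio of 2.59, while Slbp, which binds histone mRNA, and Nasp, a histone chaperone, each had 0.83 and missed the 2-fold mark in at least 1 library. Of 28 licensing and replication genes 19 were higher, and 7 of 12 genes of nucleotide supply. Rrm2, the regulated subunit of ribonucleotide reductase, had a median ratio of 4.02, Tyms, which makes thymidylate, 2.90, Dut, a dUTPase, 2.64, and Rrm1 2.38. The purine synthesis genes Paics (0.81) and Gart (0.47) did not reach 2-fold in every library.

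Mitotic genes were higher more uniformly. Of the 47 genes of the G2/M list outside the rule, 41 were more than 2-fold higher in all 5 libraries, with a median log2 ratio of 3.03. All 17 kinetochore genes, all 5 genes of the chromosomal passenger complex and 20 of 21 spindle and motor genes were higher, beside the 0.811% over all genes. Hmgb2, a chromatin protein, was detected in 136 of the 137 barcodes, at 1997, 1805, 1631, 1342 and 1832 CPM against 185 to 241 CPM. Smc4, of condensin, had a median ratio of 3.10, Cenpa, the histone of centromeres, 3.84, Cenpe, a kinetochore motor, 4.16, and Cdca8, of the passenger complex, 4.36. Kif18b (1.28) was the spindle gene that did not pass in every library. Of 13 checkpoint and APC/C genes 9 were higher, among them Cdc20 (3.85) and Bub1b (3.00), and Bub3 (1.42) was not. All 16 chromatin and condensin genes were higher, with H2az1 at 2.41 and Lmnb1 at 3.05.

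**Figure D3:**
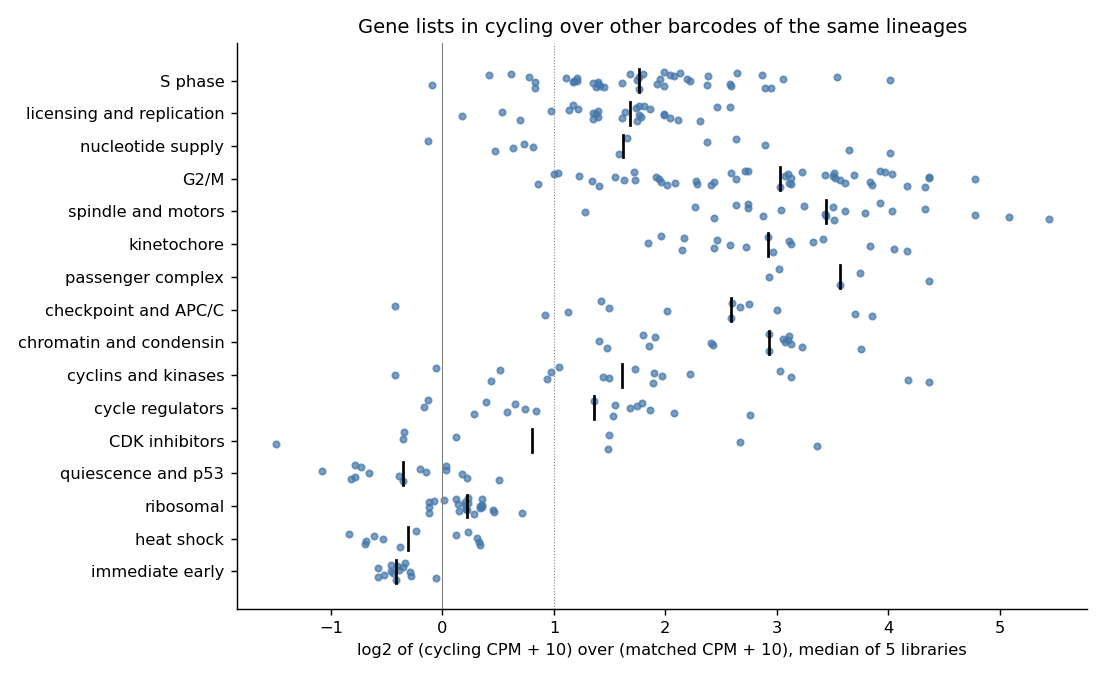
Each point is 1 gene outside the 8 rule genes; the x axis is the log2 ratio of cycling over lineage-matched CPM plus 10, as the median of 5 libraries, and the black bar is the median of the list. The G2/M list lies around 3.03 and the S list around 1.77, while the quiescence, heat shock and immediate early lists lie just below 0.

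The strongest genes by their lowest ratio over libraries, among 3618 genes with at least 10 UMIs in each library, included histones. H2ac24, a replication-dependent H2A gene, measured 1874 and 516 CPM in frail mice and 994, 872 and 2379 CPM in control libraries, against 4.75 to 10.8 CPM, a median log2 ratio of 6.04. H2ac8, another of them, stood at 797, 205, 660, 220 and 536 CPM against 2.90 to 4.49 CPM, a median of 5.35. Near-identical histone copies can share reads, so these genes are uncertain as single genes. Pclaf, a partner of PCNA, stood at 373, 192, 397, 412 and 259 CPM against 0.815 to 2.89 CPM. Prc1, which bundles the midzone of the spindle, stood at 844, 473, 275, 215 and 693 CPM against 1.14 to 4.14 CPM. Stmn1, which destabilises microtubules, stood at 1943, 1358, 1718, 1354 and 1761 CPM against 23.8 to 94.9 CPM. The rest were Tpx2, Spc24, Cdca8, Ccnb2, Ccna2, Cenpe and Cdca3.

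Cyclins, kinases and inhibitors were mixed. Ccna2 (cyclin A, 4.18) and Ccnb2 (cyclin B, 4.37) were more than 2-fold higher in every library, and 8 of 18 cyclin and kinase genes were in all. The D-type cyclins of the first gap phase were not: Ccnd1 had a median ratio of 0.97, Ccnd2 of -0.42 and Ccnd3 of 0.44, and their kinase partner Cdk4 had 1.05. Nor were Wee1 (1.44) and Cdc25b (1.90), which act on mitotic entry, or Cdk2 (0.51), a kinase of S phase. Of 8 CDK inhibitor genes, Cdkn2c (2.67), Cdkn2d (1.49) and Cdkn3 (3.36) were higher in all 5 libraries. Cdkn1c, the p57 inhibitor of quiescent cells, was lower in all 5, with ratios from -2.27 to -0.95. It measured 80.8 and 36.2 CPM in frail mice and 11.8, 40.2 and 93.4 CPM in control, against 266, 213, 39.2, 132 and 190 CPM. Cdkn1a, the p21 effector of p53, had no common direction, with ratios from -1.41 to 0.41. Among 17 cycle regulators 8 were higher, including Foxm1 (2.76), Mybl2 (1.75) and Lin9 (1.36) of the late-gene programme, whereas Rb1 (0.39) and Lin54 (0.74) were not. None of 15 quiescence and p53 genes, 23 ribosomal genes, 12 heat shock genes and 14 immediate early genes was more than 2-fold higher in every library, and their medians were -0.35, 0.22, -0.31 and -0.41.

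S-phase and G2/M transcripts were then summed in each barcode, leaving out the rule genes. Over all cycling barcodes the S list made up 31.1 to 40.3 UMIs per 10000 in the libraries, against 6.36 to 6.94 in other barcodes. The G2/M list made up 73.3 to 113 per 10000, against 12.1 to 12.4. The S share of both lists together was 26.7% and 23.5% in frail and 30.6%, 29.8% and 22.7% in control libraries. The groups overlapped, with means of 25.1% ± 2.23 (SD, n = 2) and 27.7% ± 4.36 (SD, n = 3) (exact permutation p = 0.6). Single barcodes had a median of 23.7% with quartiles of 11.3% and 39.9%, and in 19 of the 137 the S list exceeded the G2/M list. The rule used genes of late phases, so barcodes early in S phase can lie outside it. Per library, 8 to 104 other barcodes had as many S-list UMIs per 10000 as the median cycling barcode. Only 0 to 4 of these per library had 2 rule genes, and frail 2, with the 104, had 0. The count set no minimum depth, so a shallow barcode can reach this rate with few S-list UMIs. It therefore does not show how many cells in S phase the rule missed.

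**Figure D4:**
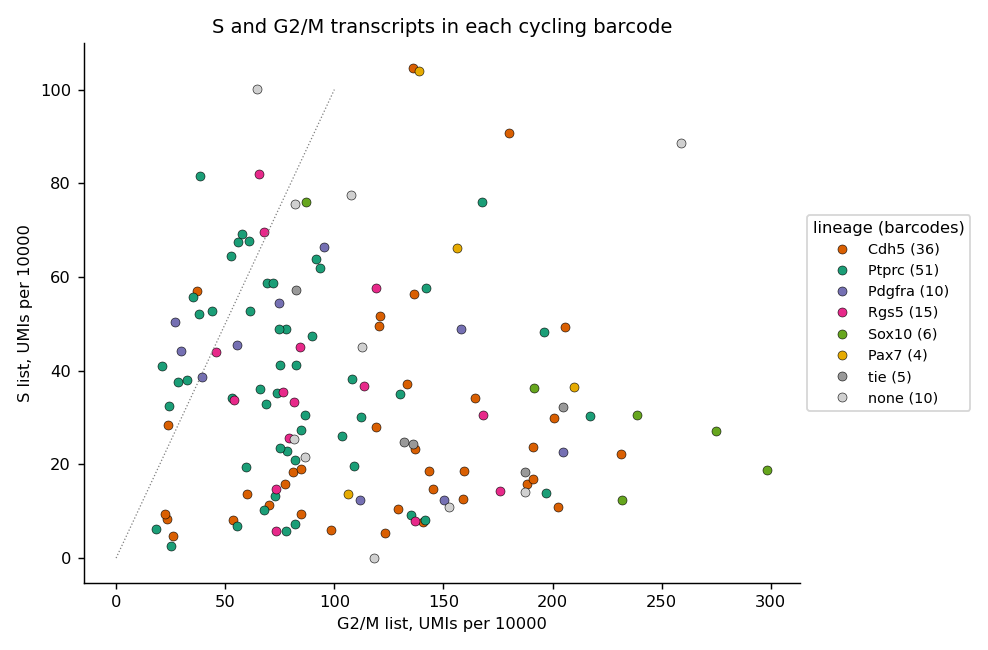
Each point is 1 cycling barcode, coloured by lineage; the x axis is G2/M-list and the y axis S-list UMIs per 10000, and the dotted line marks equal values. Most points lie right of the line, 19 of 137 lie left of it.

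The balance differed by lineage. In the 4 libraries with both, the S share of Cdh5-lineage barcodes was 19.3%, 17.0%, 16.6% and 16.2%, below the 52.2%, 40.5%, 33.6% and 25.1% of Ptprc-lineage barcodes in each. The mean difference was -20.6 ± 10.2 percentage points (SD, n = 4 libraries; exact sign-flip test at the smallest p that 4 libraries allow, which cannot reach 0.05). This lineage pair was chosen after earlier values were known. Sox10-lineage barcodes had S shares of 13.4%, 11.3% and 11.2% in the 3 libraries that held any. Their G2/M list reached 214, 239 and 243 UMIs per 10000, the highest of the 6 lineages in each of those libraries. Within the Ptprc lineage the S share was 52.2% and 40.5% in frail and 31.2%, 33.6% and 25.1% in control libraries. These groups did not overlap (exact permutation p = 0.1, the smallest possible), but the frail values rest on 3 and 9 barcodes. In control 3 the 15 keratin-rich barcodes had an S share of 17.8%, against 25.1% in the 32 others.

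Gene levels were compared between frail and control mice in the summed cycling barcodes. Of 8004 genes tested, 0 (0%) passed an adjusted p of 0.05 with edgeR's quasi-likelihood test. In that test 740 had an unadjusted p under 0.05, where 400.2 would be expected if no gene differed. DESeq2 called 54 of 4995 (1.08%), 26 higher and 28 lower. Without control 3, edgeR called 607 genes, and without frail 2 it called 1. Among genes with an average log2 CPM of at least 5, those of smallest p were Rbp7, Sox18, S1pr1, Cyyr1 and Pecam1. Rbp7, a retinol carrier of capillary endothelium, stood at 211 and 145 TMM-scaled CPM in frail and 8.91, 13.8 and 14.8 in control (log2 fold change 3.72, SE 0.36, edgeR adjusted p = 0.0817). Sox18, an endothelial transcription factor, stood at 90.2 and 96.6 against 4.46, 15.8 and 6.16 CPM. S1pr1, the sphingosine phosphate receptor of endothelium and lymphocytes, stood at 325 and 364 against 49.0, 98.6 and 75.2 CPM. Pecam1 stood at 643 and 841 against 66.9, 168 and 153 CPM. The last 4 genes had an edgeR adjusted p of 0.340. All 5 separated the groups, which 14.8% of all tested genes did with frail higher.

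These 5 genes move with the lineage makeup given above, 47.8% and 48.5% Cdh5-lineage barcodes in frail and 0% to 15.8% in control libraries, and gene level and makeup cannot be told apart in the summed values. In other barcodes their log2 fold changes were 0.18 for Rbp7, 0.99 for Sox18, 0.09 for S1pr1, 0.33 for Cyyr1 and 0.51 for Pecam1, and the difference from cycling barcodes had a limma adjusted p of 0.709 for each. Within the Cdh5 lineage, Rbp7 stood at 317 and 258 CPM in the cycling barcodes of frail 1 and 2, and at 18.3 and 48.6 CPM in those of control 2 and 3, which rest on 3 and 6 barcodes with 2 and 5 UMIs. Other Cdh5-lineage barcodes held 349, 315, 314 and 237 CPM in the same libraries. Among the 6 cycling ones of control 3, Pecam1 was detected in 4, so the control 3 values include barcodes that lack endothelial markers. Pecam1 within the lineage stood at 991 and 1584 against 687 and 719 CPM, and S1pr1 at 456 and 672 against 412 and 359 CPM. Sox18 stood at 156 and 155 against 73.3 and 29.1 CPM, and Cyyr1 at 148 and 304 against 147 and 136 CPM. The 5 genes were chosen for their difference in these same barcodes, so the values within the lineage are a description with no test.

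**Figure D5:**
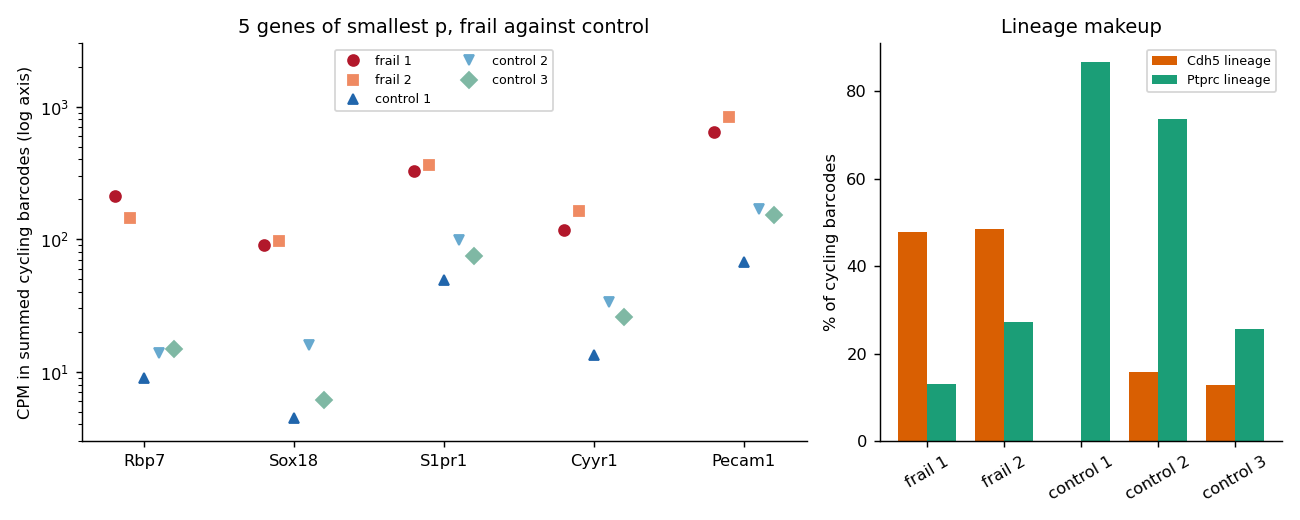
Left, TMM-scaled CPM of the 5 genes in the summed cycling barcodes of each library, on a log axis; right, the percent of cycling barcodes in the Cdh5 and Ptprc lineages. The 2 frail libraries lie above the 3 controls for each gene, and they are also the ones with 47.8% and 48.5% Cdh5-lineage barcodes.

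Marker lists were counted in the same fit, in which edgeR called no member; DESeq2 called Pecam1, Vcam1, Adgre1, Acta1, Tnnt3 and Ckm. All 5 endothelial markers were higher in frail libraries, with a median log2 fold change of 1.79, and all 5 macrophage markers were lower, with a median of -2.24. Each list had all 5 members apart between the groups, against 14.8% of tested genes with frail higher and 12.5% with frail lower. All 3 tested myofibre markers, Acta1, Tnnt3 and Ckm of the contractile and energy apparatus, were also lower and apart, with a median of -3.25. Acta1, the skeletal muscle actin, stood at 30.8 and 19.9 CPM in frail mice against 125, 359 and 77.6 CPM. In other barcodes the log2 fold changes were -4.20, -4.28 and -4.19 for Acta1, Tnnt3 and Ckm, and barcodes with over 1% myofibre UMIs numbered 12 and 101 in frail against 405, 1004 and 404 in control libraries. The part of this shift in the values of cycling barcodes was not tested. Of the 53 G2/M genes tested 37 had higher and 16 lower values, with a median of 0.15, and of 40 S-phase genes 21 were higher and 19 lower, with a median of 0.06. Over all 8004 genes, 3939 were higher and 4065 lower, with a median of -0.01. All 23 ribosomal genes had lower values in frail libraries, with a median of -0.36, and 8 of them separated the groups.

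Gdf15, the cytokine of the series title, had 95 UMIs in 23 of the 137 cycling barcodes. Its level was 30.9 and 24.6 CPM in frail and 35.4, 5.24 and 65.1 CPM in control libraries, against 42.8, 35.7, 27.4, 20.4 and 32.0 CPM in matched barcodes. The frail values lay within the range of the controls, and the ratio had no common direction, from -0.99 to 0.84. In control 3, 33 UMIs came from 1 barcode with tied lineage genes, which also held 111 C1qa UMIs, and 10 from a Pax7-lineage barcode. In Cdh5-lineage cycling barcodes Gdf15 had 9, 17, 1 and 1 UMIs in frail 1, frail 2, control 2 and control 3, or 39.1, 48.8, 9.16 and 9.72 CPM, against 29.0, 14.5, 13.0 and 15.1 CPM in other barcodes of the lineage. With 1 UMI in each of these controls, and 9 of the 17 UMIs of frail 2 in 1 barcode, this order rests on few molecules.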

How the data were processed

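Single-cell libraries of tibialis anterior from 2 frail and 3 control mice were used as UMI counts per gene and barcode deposited by the authors. Per the file headers, the software was Cell Ranger 7.0.0. GRCm38 and Seurat 4.1.2 stand in the submitters' processing notes. Text on the series text describes a digested cell suspension and the sample protocol lysed and sorted nuclei, so which was sequenced is not settled here. Frail 1 and 2 held 72043464 and 70155746 UMIs, and control 1 to 3 held 68170531, 71140868 and 90942121.

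Barcodes were filtered, picked and assigned to lineages as stated in the report, with no doublet removal. Counts of cycling and of other barcodes were summed per library. The sums of both groups were compared by edgeR 4.0.16 (quasi-likelihood test, TMM, filterByExpr, Benjamini-Hochberg at 0.05), and DESeq2 1.42.0 served as an alternative. The frail effect in cycling against other barcodes was tested in limma 3.58.1 (log2 CPM, prior count 2). Shares were compared by exact two-sided permutation over the 10 splits of libraries, and lineages by sign-flip over libraries. Wilson intervals are at 95%, and the limit on a count of 0 is 3 counts; both cover counting error only. On simulated counts of 8004 genes the edgeR step recovered 60% of 200 genes changed 4-fold and 89.5% of those changed 8-fold. These counts had a dispersion of 0.1 for every gene and no difference in lineage makeup. In the data the common biological coefficient of variation, the square root of the dispersion, was 0.354. Lineage makeup differed between the libraries, so recovery in the data is not known. R 4.3.3, Python 3.11.15 and scanpy 1.11.5 were used.

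The members, gene lists and comparisons were chosen with earlier results of these data known. Named genes are the 8 rule genes; cell-cycle list members in order of UMIs; the 12 genes with the largest lowest ratio over libraries; the 5 frailty genes of smallest p with average log2 CPM of at least 5; and lineage markers with Gdf15, Cdkn1a, Cdkn1c, Pax7, Myod1 and Myog. Other named list members, Kdr to Chil3 levels included, were picked after their values were seen. Some marker genes are not reported here.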

Additional observations from a re-analysis of the deposited data

How the results depend on the processing

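Differences are frail minus control in percentage points for shares. The cycling share over all lineages was 0.0282 and ranged from -0.0109 to 0.0968 when 1 library was left out, turning to -0.00572 without frail 2, -0.0109 without control 1 and -0.00124 without control 2. The Cdh5-lineage difference was 0.243 and ranged from 0.168 to 0.328 with 1 library left out; it was positive under every setting run. The Pdgfra-lineage difference (0.0248) ranged from -0.00816, without frail 2, to 0.0690 and was -0.00874 after thinning to 3000 UMIs. The Ptprc-lineage difference (-0.704) ranged from -1.24 to -0.166. The Pax7-lineage difference (-0.474) ranged from -0.712 to 0, the latter without control 3. The Rgs5-lineage difference (0.0930) ranged from -0.0569, without frail 1, to 0.243. The Sox10-lineage difference (0.0540) ranged from -0.640, without frail 2, to 0.748, was -0.266 without control 1 and was -0.0297 with at least 2 UMIs of the lineage gene. The S share difference (-2.61) ranged from -5.12 to -1.03 and was -0.997 as a mean of per-cell shares. Several values lay outside these ranges or moved much. With at most 5% mitochondrial UMIs the difference was 0.102 over all lineages, 0.502 for Cdh5, 0.274 for Rgs5, 0.232 for Sox10 and -1.01 for Ptprc. After thinning it was 0.352 for Cdh5 and 0.183 for Rgs5. Without the highest Scrublet scores it was -1.13 for Ptprc. The exact permutation p was 0.1, the smallest possible, for Ptprc under the mitochondrial and Scrublet settings and for Cdh5 and Rgs5 after thinning, none of which can pass 0.05. The cause of these turns was not tested.

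For frail against control genes, edgeR called 0, DESeq2 54 and edgeR without a filter on low counts 400; leaving out 1 library gave 0 to 607 calls. For the difference of the frail effect limma called 0, and 0 to 233 with 1 library left out. With the replicate number as a block, edgeR called 1237 genes and limma 370; the labels tie no numbers to shared mice or days, same-numbered deviations correlated at 0.0704 and 0.0153, and this block leaves few residual degrees of freedom. The gene test within single lineages was not run because 0 of 6 lineages had at least 10 cycling barcodes in every library. Removing keratin-rich barcodes, and the alternatives for the comparison between lineages, were chosen after seeing the data; 0 pairs passed in any of them. The 5 named frailty genes kept their direction in every alternative run and passed without the filter, with the block, without control 3 and with DESeq2. All shares rest on counts of 0 to 47 cycling barcodes per library.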
